A study of Homo sapiens with 4 samples.

Results

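The genes described here are the 8 that encode the IGF2BP and YTH-domain families, proteins that read modified bases in mRNA: IGF2BP1, IGF2BP2, IGF2BP3, YTHDF1, YTHDF2, YTHDF3, YTHDC1 and YTHDC2. They were chosen by gene symbol, and all 8 were found among the 26830 genes of the table. The values are from RNA immunoprecipitation sequencing (RIP-seq) in U2OS, an established human osteosarcoma cell line, done to find transcripts bound directly by QKI7, one of the protein isoforms made from the QKI gene. All cells in both groups carried a lentiviral construct for 3 x Flag-QKI7 with GFP and were kept as a GFP-positive population, without further treatment, which the labels call forced expression of QKI7. Input RNA (2 libraries, no antibody) was compared with RNA recovered from ultraviolet cross-linked, sonicated lysate with a Flag antibody (Flag-RIP, 2 libraries). A precipitation with no tagged protein was not analysed here, so recovery by QKI7 and recovery by the beads or the antibody cannot be told apart. Whether the 2 replicates of a group came from separate cultures is not said in the labels. The p-values therefore measure only how far these libraries lay apart, which may be technical.

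N6-methyladenosine (m6A) is an internal mark of mRNA that is written by a methyltransferase complex, removed by demethylases and bound by reader proteins. YTH-domain proteins hold the methylated base in an aromatic pocket. YTHDF1, YTHDF2 and YTHDF3 are cytoplasmic paralogues known for effects on mRNA translation and decay, YTHDC1 is nuclear and acts in splicing and export, and YTHDC2 carries a helicase domain and is needed in meiosis. The IGF2BP proteins bind RNA through KH and RRM domains, stabilise their targets and are made mostly in fetal tissue and in tumours. QKI has been described as a reader of internal N7-methylguanosine (m7G), another mark of mRNA. The values below are the amounts of the readers' own transcripts in each library. They say nothing of which RNAs the reader proteins bound.

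Values are TPM, a length-normalised share of a library from which the number of reads cannot be recovered. The osteosarcoma label was checked against 9 osteoblast-lineage and mesenchymal markers, whose summed TPM was 231 to 314 in the inputs and 657 to 883 in Flag-RIP. VIM, COL1A1 and SPARC made up nearly all of it, and the osteoblast regulator SP7 was at most 0.13 TPM in any library. ALPL, COL1A2 and SPP1 were at most 0.55 TPM in any library, and BGLAP was too outside Flag-RIP replicate 1 (2.62 TPM). RUNX2 was higher than these, at 0.61 and 1.12 TPM in the inputs and 6.52 and 4.05 in Flag-RIP. The sum therefore says little about osteoblast markers. For 6 markers of other cell types the sum was 0.36 to 0.51 in the inputs and 2.19 to 3.30 in Flag-RIP, with the endothelial gene CDH5 at 2.19 and 1.23 TPM in Flag-RIP and 0.12 and 0.22 in the inputs, the leukocyte gene PTPRC at or below 0.01 TPM and ALB listed at 0. One property of all libraries bears on every value below. The 7SL RNA rows RN7SL1 and RN7SL2 took 39.8% to 84.6% of the TPM, more in the inputs, the ERCC spike-ins took 2.78% to 3.89% in the inputs and 18.9% to 25.6% in Flag-RIP, and the medians of log2(TPM + 1) lay 1.32 apart between the groups. Changes are therefore given as deposited and, as "centred" changes, after all libraries had been brought to 1 shared median. A centred change compares a gene's change in log2(TPM + 1) with the shift of the library medians. It also depends on the gene's level, since the pseudocount holds back low genes more than abundant ones. By ratio of mean TPM, YTHDF1 lay above 73.5% and YTHDC2 above 60.7% of tested genes. By centred change they lay above 93.3% and 30.6%.

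IGF2BP2 was the most abundant reader transcript in Flag-RIP and the one that stood furthest above the typical gene. It encodes an IGF2BP paralogue that remains active in many adult tissues. The inputs held 6.35 and 10.8 TPM of it, and the Flag-RIP libraries held 173 and 99.85 TPM. Both Flag-RIP values lay far above both inputs, and the 2 Flag-RIP libraries differed from each other by more than the inputs did. The mean rose from 8.59 ± 3.16 to 137 ± 51.9 TPM (SD, n = 2), a ratio of 15.9, against a median ratio of 3.32 over the 10415 tested genes. A lower ratio was found for 98.0% of tested genes, and its centred change ranked 32 among them. The ratio was 27.3 between the libraries numbered 1 and 9.23 between those numbered 2. The centred log2 change was 2.51 (SE 0.25, 95% interval 1.93 to 3.09, limma adjusted p = 8.7e-04), and as deposited it was 3.83 (limma adjusted p = 9.3e-30). The fit as deposited took its error from a trend over all genes and not from the spread of IGF2BP2 itself.

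The other IGF2BP genes, IGF2BP1 and IGF2BP3, are the members of the family best known from embryonic tissue. IGF2BP1 stood at 0.08 and 0.13 TPM in the inputs and at 0.46 in both Flag-RIP libraries. IGF2BP3 stood at 0.02 and 0.05 TPM in the inputs and at 0.19 and 0.40 in Flag-RIP. Both were higher in each Flag-RIP library than in each input and below 1 TPM in all 4, so neither passed the filter of a mean TPM of at least 1 and neither was tested. The plain ratios of means were 4.38 for IGF2BP1 and 8.43 for IGF2BP3. The file gives 2 decimals, and rounding alone allows ratios of 4.14 to 4.65 and of 7.25 to 10.0. IGF2BP2 made up 98.4% of the family's summed TPM in both inputs and 99.6% and 99.1% in Flag-RIP. The family was thus represented almost entirely by IGF2BP2 before and after the precipitation.

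**Figure D1:**
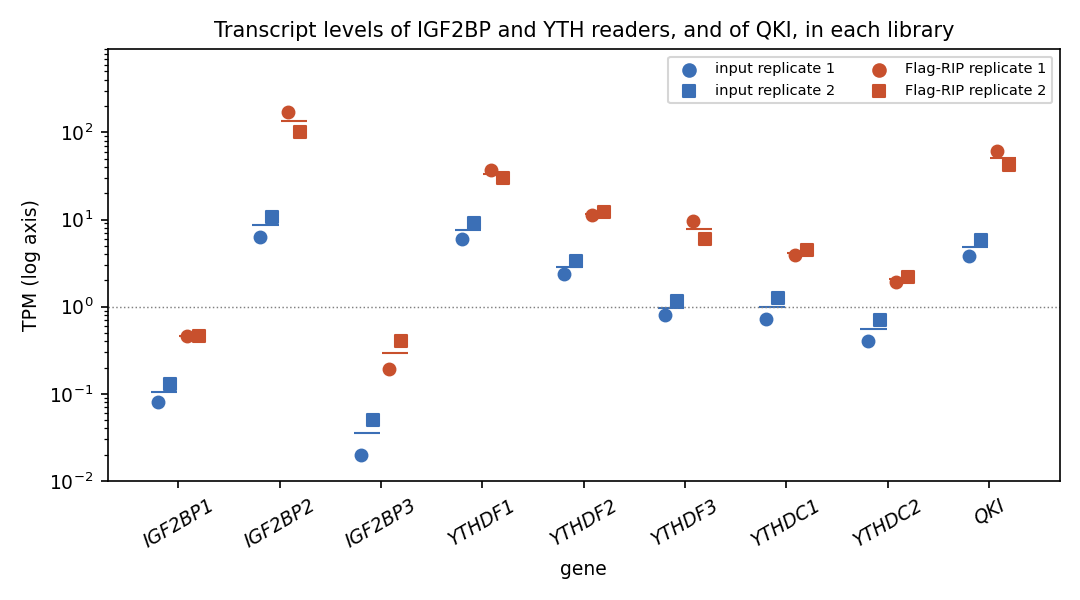
TPM of the 8 reader genes and of QKI in each library, on a log axis, with input in blue, Flag-RIP in orange, circles for replicate 1, squares for replicate 2 and short lines for the group means. In these deposited values both Flag-RIP points lie above both inputs for every gene shown, IGF2BP1 and IGF2BP3 stay below the dotted line at 1 TPM, and the ratio of means is largest for IGF2BP2, at 15.9.

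YTHDF1 was the most abundant YTH-domain transcript in every library. It encodes the paralogue best known for promoting translation. It went from 5.93 and 9.04 TPM in the inputs to 37.0 and 29.7 in Flag-RIP, with no overlap between the groups. The ratio of means was 4.46, and 73.5% of tested genes had a lower one. The centred change was 0.72 (SE 0.15, 95% interval 0.37 to 1.06, limma adjusted p = 0.0086). Without input replicate 1 the change was 0.65 and missed the threshold (limma adjusted p = 0.092). Where 1 library is left out, its group has a single library that is assumed to vary like the other group, so such p-values can move while the change stays near its size.

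YTHDF2, which brings the CCR4-NOT deadenylase to methylated mRNA, had 2.40 and 3.35 TPM in the inputs and 11.2 and 12.1 in Flag-RIP. The replicates of each group lay close together and the groups did not overlap. Its ratio of means was 4.05, above that of 66.5% of tested genes. The centred change of 0.40 (SE 0.12, limma adjusted p = 0.028) was the smallest of those that passed. It did not pass without input replicate 1 (0.42, limma adjusted p = 0.173), without input replicate 2 (0.38, 0.168) or with a pseudocount of 0.1 (0.28, 0.129).

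YTHDF3, described as acting together with the other YTHDF proteins, had 0.80 and 1.15 TPM in the inputs and 9.68 and 5.98 in Flag-RIP. Like IGF2BP2, it was higher in Flag-RIP replicate 1 than in replicate 2, whereas its inputs ran the other way. The ratio of means was 8.03, and 93.5% of tested genes had a lower ratio. The centred change was 0.82 (SE 0.17, 95% interval 0.42 to 1.21, limma adjusted p = 0.0085). Leaving out input replicate 1 or input replicate 2 ended the call (0.89, limma adjusted p = 0.079, and 0.75, 0.083). On this scale a gene near 1 TPM in the inputs gains less than its ratio, and the centred change was 1.14 with a pseudocount of 0.1.

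The nuclear reader YTHDC1 had 0.72 and 1.24 TPM in the inputs and 3.90 and 4.45 in Flag-RIP. Its ratio of means was 4.26, close to those of YTHDF1 and YTHDF2, and 70.1% of tested genes had a lower one. Its centred change was 0.08 (SE 0.12, 95% interval -0.19 to 0.35, limma adjusted p = 0.61), and the sign turned with a pseudocount of 5 (-0.05). With no filter on low values it was 0.64 and passed (limma adjusted p = 0.0014). The medians were then taken over more low genes, and the centred change of every tested reader was higher there.

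YTHDC2 had 0.40 and 0.70 TPM in the inputs and 1.94 and 2.20 in Flag-RIP. The groups did not overlap, and the ratio of means was 3.76, the smallest of the 8, although 60.7% of tested genes had a lower one. Its centred change was -0.33 (SE 0.16, 95% interval -0.69 to 0.04, limma adjusted p = 0.133). With a pseudocount of 0.1 it was 0.06, so whether YTHDC2 lay above or below the typical gene depended on the scale. With a pseudocount of 5 it was -0.32 and passed (limma adjusted p = 0.0055). All YTHDC2 values lay below 5 TPM, and such a pseudocount shrinks their change (0.35 as deposited). That call therefore does not show that YTHDC2 lay below the typical gene.

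Among the 6 tested readers, 4 were higher and 0 lower on the centred scale (IGF2BP2, YTHDF1, YTHDF2 and YTHDF3), where the shares over all tested genes were 16.4% higher and 24.4% lower. YTHDC1 and YTHDC2 had unadjusted limma p of 0.51 and 0.074. The plain ratio of YTHDC1 (4.26) lay above that of YTHDF2 (4.05), so plain ratios did not give the same split. With either input left out, fewer of the 6 readers passed, as did fewer of all tested genes. Without input replicate 1 the centred changes of IGF2BP2, YTHDF1, YTHDF2 and YTHDF3 were 2.37, 0.65, 0.42 and 0.89. Without input replicate 2 they were 2.66, 0.79, 0.38 and 0.75. As deposited all 6 were higher, where the same was true of 92.3% of tested genes. The groups did not overlap for any of the 6, with both Flag-RIP values above both inputs, as for 96.7% of tested genes. Neither of the last counts sets the readers apart from other genes. When libraries were scaled to the ERCC spike-ins, where 3.06% of tested genes were higher and 60.5% lower, IGF2BP2 was higher (1.22, limma adjusted p = 0.0027) and no other reader passed. On that scale YTHDF3 had 0.21, and YTHDF1, YTHDF2, YTHDC1 and YTHDC2 had -0.63 to -0.45. YTHDF3, YTHDC1 and YTHDC2 had mean inputs below 1 TPM (0.975, 0.98 and 0.55) and passed the filter through their Flag-RIP values.

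**Figure D2:**
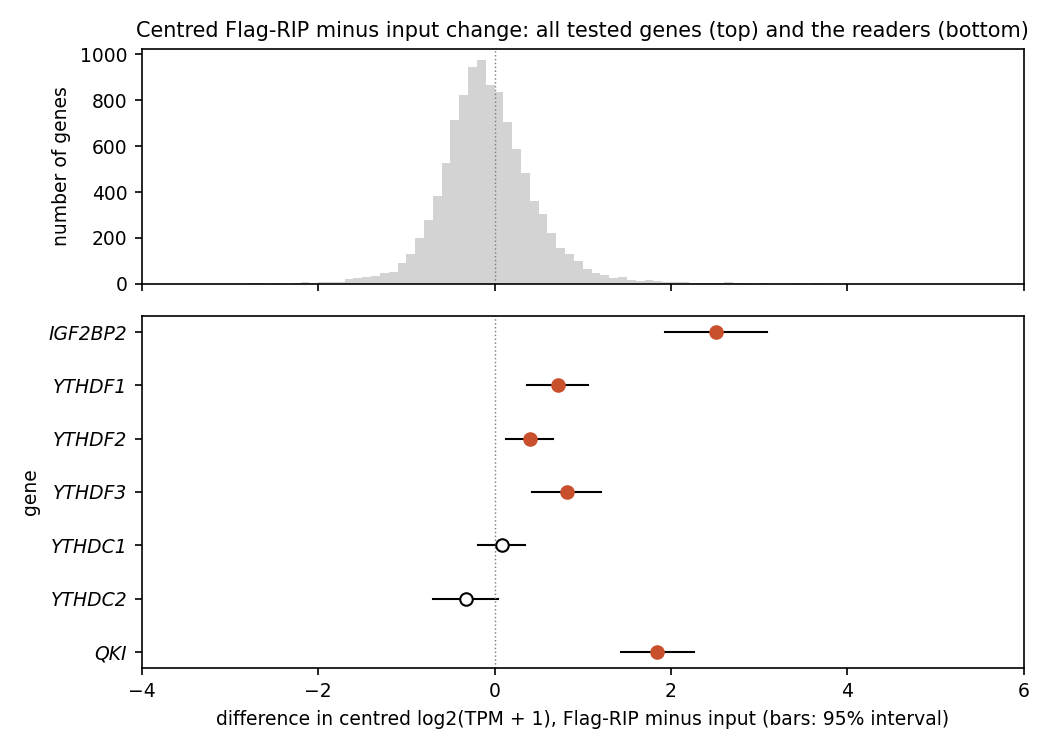
Top, the number of tested genes at each centred change (Flag-RIP minus input in log2(TPM + 1) with library medians made equal). Bottom, the centred changes of the 6 tested readers and QKI as points with 95% intervals from the limma fit, filled where the adjusted p was under 0.05. IGF2BP2 at 2.51 and QKI at 1.85 lie in the right tail of the distribution, the YTHDF genes at 0.40 to 0.82, and the intervals of YTHDC1 and YTHDC2 include 0.

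A ratio of 2 transcripts within a library does not depend on how that library is scaled, although fits on log2(TPM + 1) keep the effect of the pseudocount. It was therefore used to set readers against each other. IGF2BP2 was 1.071 and 1.197 times as abundant as YTHDF1 in the inputs and 4.68 and 3.36 times in Flag-RIP. The 2 transcripts were thus close in level in the inputs and far apart in Flag-RIP. With IGF2BP2 as the reference in each library, the YTH genes were all lower in Flag-RIP, as were 98.9% of tested genes. The relative changes on the log2(TPM + 1) scale were -1.80 for YTHDF1 (95% interval -2.77 to -0.82, limma adjusted p = 3.3e-04), -2.11 for YTHDF2, -1.70 for YTHDF3, -2.43 for YTHDC1 and -2.84 for YTHDC2. The largest adjusted p of the 5 was 7.0e-04, over all genes tested in that fit. Without input replicate 1 the relative changes stayed close to these, at -1.72, -1.95, -1.48, -2.28 and -2.64 in the same order, but none of the 5 passed (limma adjusted p of 0.050 to 0.168). Without input replicate 2, YTHDF1 and YTHDF3 did not pass at similar sizes (-1.87, 0.082, and -1.91, 0.075).

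Within the YTHDF family the 3 transcripts kept the order YTHDF1, YTHDF2, YTHDF3 in every library. YTHDF1 took 65.0% and 66.8% of the family's summed TPM in the inputs and 63.9% and 62.2% in Flag-RIP. YTHDF2 took 26.3% and 24.7% in the inputs and 19.4% and 25.3% in Flag-RIP, so its groups overlapped. YTHDF3 took 8.76% and 8.49% in the inputs and 16.7% and 12.5% in Flag-RIP, which did not overlap. The YTHDF2 to YTHDF3 ratio went from 3.00 and 2.91 in the inputs to 1.16 and 2.02 in Flag-RIP.

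With YTHDF2 as the reference, 4.09% of tested genes rose in Flag-RIP and 58.8% fell, and neither paralogue passed. The relative change was 0.32 for YTHDF1 (95% interval -0.13 to 0.77, limma adjusted p = 0.179) and 0.42 for YTHDF3 (-0.12 to 0.96, limma adjusted p = 0.147). These intervals allow differences of up to 0.77 and 0.96, and so do not show that the 3 transcripts were recovered alike. The value for YTHDF1 was 0.52 without Flag-RIP replicate 2, which passed (limma adjusted p = 0.035), and 0.11 without replicate 1, and it passed at 0.54 with a pseudocount of 5 (0.0054). The value for YTHDF3 depended on the scale, with 0.86 and a pass at a pseudocount of 0.1 (limma adjusted p = 0.025) and 0.01 at a pseudocount of 5. It also depended on the Flag-RIP library, at 0.77 without replicate 2, which passed, and 0.06 without replicate 1.

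For the YTHDC pair, YTHDC1 was 1.80 and 1.77 times as abundant as YTHDC2 in the inputs and 2.01 and 2.02 times in Flag-RIP. The replicates of each group nearly coincided. With YTHDC1 as the reference, 8.12% of tested genes were higher and 22.5% lower, and the relative change of YTHDC2 was -0.41 (95% interval -0.80 to -0.01, limma adjusted p = 0.106), which did not pass over all genes. It passed without Flag-RIP replicate 1 (-0.42, limma adjusted p = 0.045). The ratio of YTHDF2 to YTHDC1, at 3.33 and 2.70 in the inputs, overlapped with the 2.87 and 2.72 of Flag-RIP. The relative change of this pair was 0.32, with a limma adjusted p of 0.045 when YTHDF2 was the reference and 0.122 when YTHDC1 was. With a pseudocount of 0.1 its size was 0.03 with the sign turned, so these 2 readers were not told apart.

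**Figure D3:**
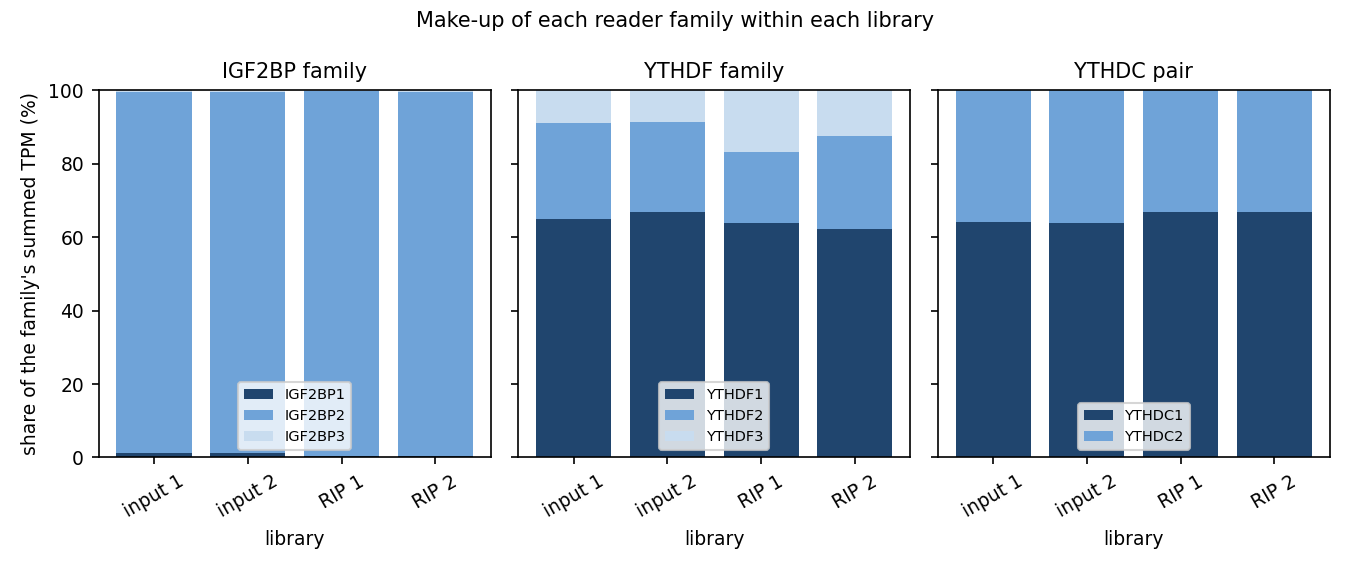
Share of each family's summed TPM taken by its members in each of the 4 libraries, as stacked bars that reach 100%. IGF2BP2 fills at least 98.4% of the IGF2BP bars, the YTHDF3 segment is 8.76% and 8.49% in the inputs and 16.7% and 12.5% in Flag-RIP, and the YTHDC bars are split at 63.9% to 66.9% in all libraries.

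QKI, the gene of the tagged protein, gives a scale for these values, although its rows may hold reads of the transgene beside those of the endogenous gene. IGF2BP2 was 1.66 and 1.85 times as abundant as QKI in the inputs and 2.85 and 2.38 times in Flag-RIP. With IGF2BP2 as the reference, QKI changed by -0.67 (95% interval -1.64 to 0.31, limma adjusted p = 0.180). That fit took its error from a trend over all genes and not from this pair, whose ratios did not overlap between the groups. It does not show that the 2 transcripts were recovered alike. Without Flag-RIP replicate 2 the value was -0.80, with a limma adjusted p of 0.011 that takes its spread from the inputs.

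Summed over the 8 genes, reader transcripts made up 16.7 and 26.5 TPM of the inputs and 238 and 155 TPM of Flag-RIP. IGF2BP2 accounted for 38.0% and 40.9% of that sum in the inputs and for 72.9% and 64.4% in Flag-RIP. YTHDF1 went from 35.5% and 34.1% to 15.6% and 19.2%. The share of YTHDF3 was nearly level, at 4.79% and 4.34% in the inputs and 4.07% and 3.85% in Flag-RIP. Mean levels in the inputs ran IGF2BP2, YTHDF1, YTHDF2, YTHDC1, YTHDF3, YTHDC2, IGF2BP1 and IGF2BP3 from high to low. The neighbours IGF2BP2 and YTHDF1 (8.59 ± 3.16 and 7.49 ± 2.20 TPM) and YTHDC1 and YTHDF3 (0.98 ± 0.37 and 0.975 ± 0.25 TPM) differed by less than the spread of their replicates. Within each input, though, IGF2BP2 lay above YTHDF1 (1.071 and 1.197 times), while YTHDC1 and YTHDF3 changed order between the inputs. In Flag-RIP the means kept the order given for the inputs, except that YTHDF3 (7.83 ± 2.62 TPM) lay above YTHDC1 (4.18 ± 0.39 TPM).

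Antisense genes are annotated at IGF2BP2 and YTHDF3. IGF2BP2-AS1 had 0.04 and 0.08 TPM in the inputs and 1.99 and 1.26 in Flag-RIP, a ratio of means of 27.1 that rests on inputs near 0. YTHDF3-AS1 had 0.27 and 0.50 TPM in the inputs and 1.36 and 0.96 in Flag-RIP, a ratio of 3.01. Neither passed the filter. The library kit keeps strand, but no source used here says whether the counting did. The levels of sense and antisense genes may therefore share reads.

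In GRCh38.p14 the reader genes lie on separate chromosomes. IGF2BP1 is on chromosome 17 from 48996558 to 49056145, IGF2BP2 on chromosome 3 from 185643130 to 185825042 and IGF2BP3 on chromosome 7 from 23310209 to 23470491. YTHDF1 is on chromosome 20 from 63195429 to 63216131, YTHDF2 on chromosome 1 from 28736624 to 28769775 and YTHDF3 on chromosome 8 from 63168553 to 63212788. YTHDC1 is on chromosome 4 from 68310387 to 68350090 and YTHDC2 on chromosome 5 from 113513694 to 113595284. The spans of the tested genes run from 20703 bases for YTHDF1 to 181913 bases for IGF2BP2. The deposited values are per gene, so the part of a transcript that was recovered is not known.

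For each tested reader the 2 genes with the nearest centred log2 values over the 4 libraries were found by Euclidean distance. LAMTOR1, a subunit of the Ragulator complex on lysosomes, lay nearest to IGF2BP2 at a distance of 0.17, with 7.16 and 11.1 TPM in the inputs and 182 and 100.2 in Flag-RIP. POTEE, from a family of near-identical copies among which reads may be divided, followed at 0.42. These were the only 2 tested genes within 0.5 of IGF2BP2, whereas 61 lay that near to YTHDF1, 126 to YTHDF3, 441 to YTHDF2, 1051 to YTHDC1 and 1493 to YTHDC2. Such counts also depend on how many genes share a level, so they were not compared with a test.

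YTHDF1 had MACF1, a cytoskeletal linker, and RCC2 as its neighbours, at 0.11 and 0.13. YTHDF2 had PMM2, an enzyme of mannose metabolism, at 0.04 and the Golgi protein gene GOLGB1 at 0.13. YTHDF3 had PSD3 at 0.11 and DPY19L1 at 0.16. YTHDC1 had PAPLN at 0.05 and NAXD at 0.07, and YTHDC2 had PRR3 at 0.04 and the kinase gene TBK1 at 0.05.

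The readers were then set beside 7 lists of genes that write, erase or act with the same marks. Of 46 different genes, 45 were found and 41 tested, of which 7 were higher and 5 lower on the centred scale, beside 16.4% and 24.4% of all tested genes. The share of higher list genes was thus near that of all genes. Changes of list genes are centred, so relative to the library medians, unless said to be as deposited. As deposited, all 41 were higher in Flag-RIP, as were 92.3% of all tested genes. The median centred change of the 41 was 0.04, against -0.11 over all tested genes, and their median ratio of mean TPM was 3.48, against 3.32. With either input left out, fewer list genes passed in each direction, as did fewer of all tested genes. Without Flag-RIP replicate 1 fewer list genes were lower, while the lower count over all tested genes stayed near that of the main fit. With a pseudocount of 5 there were 17 higher list genes, where 2354 of all tested genes were higher, against 1703 in the main fit.

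Among 10 m6A writer genes, 1 was higher and 1 lower, not more than the shares over all tested genes. RBM15, which helps bring the methyltransferase to its targets, had 3.26 and 4.41 TPM in the inputs and 61.6 and 53.5 in Flag-RIP, a centred change of 2.29 (limma adjusted p = 1.6e-04). It was the only writer near the size of IGF2BP2. METTL3, the catalytic subunit, had 0.26 and did not pass (limma adjusted p = 0.085). Its partner METTL14 had -0.24 and the adaptor WTAP had -0.09. The ratios of means ran the other way for METTL3 (3.71) and METTL14 (3.89), whose inputs were 0.37 and 0.83 TPM. The centred values therefore do not show that METTL14 was recovered less than METTL3. PCIF1, which methylates the cap-adjacent adenosine, fell by 0.36 (limma adjusted p = 0.035). Neither eraser passed, with FTO at 0.33 (limma adjusted p = 0.053) and ALKBH5 at 0.23. Of the 2, 1 had an unadjusted limma p under 0.05, as had 5320 of the 10415 tested genes. Of the internal m7G writer, the subunit WDR4 rose by 0.88 (limma adjusted p = 0.0061) and the catalytic subunit METTL1 had -0.33 and did not pass (limma adjusted p = 0.158).

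Of 10 other proposed readers, 3 were higher and 3 lower, beside 16.4% and 24.4% of all tested genes. HNRNPA2B1, a nuclear RNA-binding protein, rose by 0.69, the stabilising factor ELAVL1 by 0.68 and EIF3A, a subunit of an initiation factor, by 0.62. FMR1 fell by 0.47, SND1 by 0.44 and FXR2 by 0.32 relative to the medians, while as deposited they rose by 0.85, 0.88 and 1.00. Limma adjusted p-values of these 6 genes ran from 0.020 to 0.046. FMR1 had inputs of 0.37 and 0.75 TPM and a ratio of means of 3.19, near the median ratio of 3.32.

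Of the 10 CCR4-NOT genes found, 8 were tested, with the deadenylase CNOT7 higher at 0.71 (limma adjusted p = 0.0075), CNOT11 lower at -0.32 (limma adjusted p = 0.036) and the scaffold CNOT1 at 0.04. Among 7 partners of the IGF2BP proteins, PABPC1, the cytoplasmic poly(A)-binding protein, rose by 2.29 (limma adjusted p = 0.0028) and ELAVL1, also counted above, rose too. The other 5 (HNRNPU, SYNCRIP, YBX1, DHX9 and MATR3) had -0.17 to 0.16 and did not pass. PABPC1 went from 39.7 and 67.0 TPM in the inputs to 952 and 432 in Flag-RIP, with replicate 1 the higher as for IGF2BP2. None of the 3 tested YTHDC partners passed, with SRSF3 at -0.08, SRSF10 at 0.21 and NXF1 at 0.12. At an unadjusted limma p under 0.05 there were 0, beside 5320 of the 10415 tested genes. MEIOC, the meiotic partner of YTHDC2, is listed at 0 in both inputs.

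**Figure D4:**
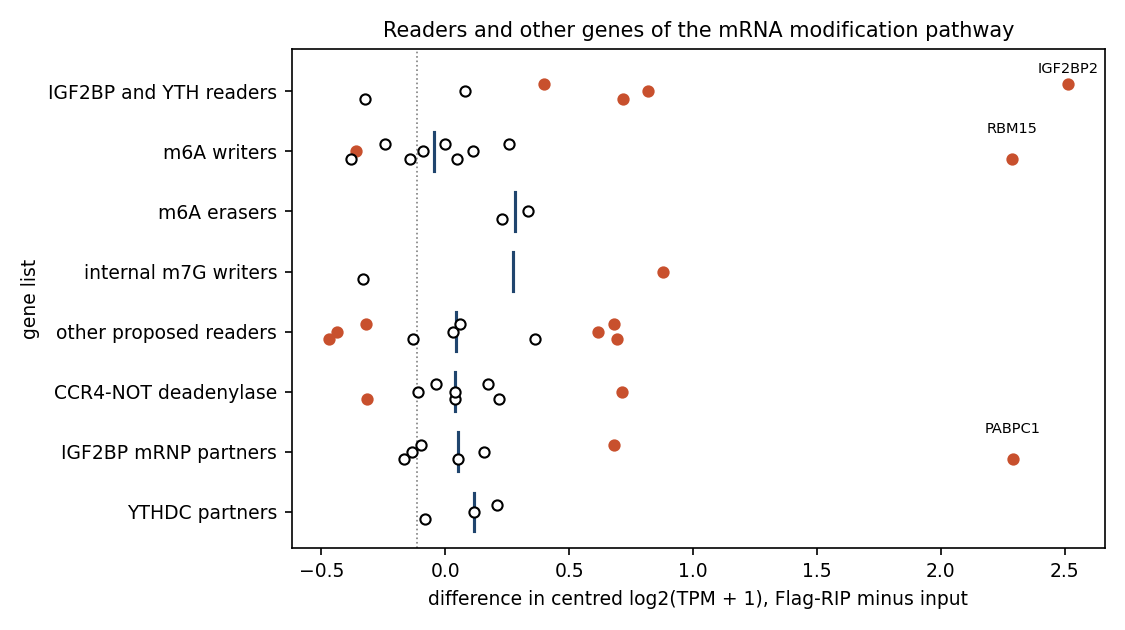
Centred changes of the 6 tested readers and of the tested genes in 7 lists of the mRNA modification pathway, 1 point per gene, filled where the limma adjusted p was under 0.05. Blue ticks are medians of the 7 lists and the dotted line is the median over all tested genes, -0.11. Most points lie between -0.5 and 1, with IGF2BP2 at 2.51, PABPC1 at 2.29 and RBM15 at 2.29 apart from them.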

How the data were processed

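RIP-seq libraries of U2OS cells with Flag-tagged QKI7 were analysed, 2 of input and 2 of Flag-RIP RNA. The authors deposited 1 table of TPM values, made with STAR and RSEM 1.2.31 on GRCh38, per the submitters' processing notes. The annotation, any filter and the strand option were not stated in the sources used here. Depth is unknown, so no counting interval is given. The 92 ERCC spike-in rows stayed in the TPM total and out of the tests. Genes whose mean TPM reached 1 were tested on log2(TPM + 1) with limma 3.58.1 in R 4.3.3 (lmFit, eBayes with a trend, two-sided, Benjamini-Hochberg over all tested genes, threshold 0.05), as deposited, centred on library medians, and relative to 1 reader in each library. Residual degrees of freedom were 2. As deposited and relative to IGF2BP2 limma estimated an infinite prior, so each gene took its spread from the trend. Plain ratios are of mean TPM. On the log2(TPM + 1) scale, fold changes of low genes come out too small. The procedure was tested on simulated data in which all genes had the same shift in log2(TPM + 1) and the same noise. Such data cannot show how centred changes depend on the level of a gene. Older symbols and coordinates come from RefSeq (GRCh38.p14). Named genes were the readers, QKI, 7 pathway lists and 2 nearest genes per tested reader. The members, lists and tests were chosen with earlier results of these data known. Alternatives were other pseudocounts, filters, scalings and variance settings, a replicate block and leaving out each library. Transcript and protein sequences were not used here.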

Additional observations from a re-analysis of the deposited data

How the results depend on the processing

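With only 2 libraries a group, leaving out 1 input was the change that ended most calls on the centred scale. Over the 4 left-out libraries, centred higher and lower genes ranged from 332 to 2294 and from 322 to 3184, deposited higher genes from 5396 to 9801, centred higher readers from 1 to 4, and higher and lower list genes from 2 to 9 and from 0 to 5. YTHDF1 relative to IGF2BP2 ranged from -2.04 to -1.55, YTHDF1 and YTHDF3 relative to YTHDF2 from 0.11 to 0.52 and from 0.06 to 0.77, and YTHDC2 relative to YTHDC1 from -0.46 to -0.35. The centred value of YTHDC1 ranged from -0.036 to 0.195, below 0 without Flag-RIP replicate 2. IGF2BP2 passed under every alternative run, at 1.22 to 4.22 as deposited or rescaled and 2.16 to 3.07 centred.

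Scaling moved the deposited counts. Quantile normalization gave 1842 higher and 2136 lower genes, 3 higher readers and YTHDC2 at -0.068. Rescaling without the 20 most abundant rows gave 3748 and 730 genes. Scaling to the spike-ins gave 319 and 6306 genes, 1 higher reader, YTHDF1 at -0.54, YTHDF2 at -0.63, YTHDC1 at -0.45 and YTHDC2 at -0.48. With no filter 15078 genes were higher and 54 lower as deposited, and 5590 and 10238 centred. More genes were tested, and the medians used for centring then included low genes. Centred changes of the tested readers all moved up, for IGF2BP2 from 2.51 to 3.07. These centred counts therefore use another zero point than the main ones. Without the filter 28 list genes were higher and 1 lower centred, YTHDC2 was 0.23, and YTHDF3 relative to YTHDF2 passed at 0.42. IGF2BP1 and IGF2BP3 were called lower centred, at -0.36 and -0.44, but higher as deposited, at 0.40 and 0.32. Both lay below 1 TPM in all libraries, where log2(TPM + 1) leaves little room for a rise. These 2 calls therefore do not show that they lay below the typical gene. With a mean TPM of at least 5, 3476 genes were higher as deposited, 1025 higher and 1171 lower centred, all 3 readers still tested were higher as deposited, and 2 list genes were lower. A pseudocount of 0.1 gave YTHDC2 0.056 centred, YTHDC1 0.026 relative to YTHDF2, and YTHDF3 0.86 relative to YTHDF2, which passed. A pseudocount of 5 gave YTHDC1 -0.049 centred and 17 higher list genes, beside 2354 higher over all tested genes. It gave passes for YTHDF1 relative to YTHDF2 (0.54) and YTHDC2 relative to YTHDC1 (-0.27). It also gave 1 lower reader, YTHDC2, whose values all lay below 5 TPM, where so large a pseudocount shrinks the change. With no variance trend 3 list genes were lower, beside 2561 of all tested genes. The cause was not tested in the cases where none is given.

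The labels do not say that equal replicate numbers share a culture, and the differences between replicates 1 and 2 of the 2 groups correlated at r = -0.067 over the 10415 tested genes. With the replicate number as a block, 1720 genes were higher and 2457 lower centred, the same 4 readers passed, 3 list genes were lower, and YTHDF3 relative to YTHDF2 (0.42, limma adjusted p = 0.037) and YTHDC2 relative to YTHDC1 (-0.41, 0.023) passed. YTHDF3 relative to IGF2BP2 (-1.70, 0.060) and YTHDC1 relative to YTHDF2 (-0.32, 0.080) did not. The unknown depth limits the values of IGF2BP1, IGF2BP3 and the inputs of YTHDF3, YTHDC1 and YTHDC2 most.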
